A study of Mus musculus with 6 samples.

Results

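The genes described here mark macrophages and one of their activation states in mouse breast tumors. The 10 members were found by matching their symbols to the NCBI Gene identifiers in the expression tables, and all 10 were present among the 18460 genes with reads in at least 1 of 6 tumors. They fall into 3 identity genes (Adgre1, Csf1r and Cd68), the 3 chains of complement C1q (C1qa, C1qb and C1qc) and 4 genes of type 2, or alternative, activation (Arg1, Mrc1, Retnla and Chil3). Bulk RNA sequencing compared 3 test tumors, from K14-TSLPtg;PyMTtg;Rag1KO mice, with 3 control tumors, from PyMTtg;Rag1KO mice. Mice of both groups were Balb/c, were injected with CD4+ T cells at 4 weeks of age, and gave tumors at endpoint, between weeks 18 and 20. The PyMT transgene drives breast cancer in the mammary epithelium, the Rag1 knockout leaves the host without T and B cells of its own so that T cells come from the transfer, and the K14 promoter of the TSLP transgene is active in keratinocytes of the skin. The comparison asks how tumors differ when transferred CD4+ T cells act in a host with high TSLP.

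Macrophages are phagocytes that depend on signals through the CSF1 receptor and that enter growing tumors in large numbers. The type 2 cytokines IL-4 and IL-13 act through the IL-4 receptor and the transcription factor STAT6 to drive alternative activation, a state known from parasite infection, allergy and wound repair. Arginase 1, the mannose receptor CD206 (Mrc1), the secreted protein RELMα (Retnla) and the chitinase-like protein Ym1 (Chil3) are its usual markers in the mouse. C1q, which starts the classical complement pathway and tags dying cells for uptake, is made mainly by tissue macrophages.

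Total expected counts, the estimated reads per gene, ran from 8373390 to 9449565 per tumor. Levels of 1 gene between tumors are given as CPM, the count scaled to the size of the library, and levels of different genes as FPKM, which is also scaled to gene length. Control tumor 2 stood apart from its group: over all genes its profile correlated at 0.921 to 0.935 with the 3 test tumors and at 0.874 and 0.908 with control tumors 1 and 3. Tslp itself measured 1.38, 0.854 and 0.212 CPM in test tumors 1 to 3 and 0.231, 0.216 and 0.320 CPM in the controls, so that test tumor 3 was level with the controls and the transgene could not be read from every tumor. Rag1 was low in all 6 tumors, at 0.433 to 3.12 CPM, and its gene total cannot show whether the deleted part was read. Epcam and Krt8, markers of mammary epithelium, were abundant in all 6 tumors.

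Of the 10 macrophage genes, 8 had enough reads to pass the low count filter of edgeR, and none of the 8 passed the test between test and control tumors. Of these, 3 were higher on average in the test tumors, all of them C1q chains, and 5 were lower, where 48.5% of all genes tested were lower. The quasi-likelihood test of edgeR, adjusted by Benjamini-Hochberg, called 0 of 8 members at a false discovery rate of 0.05, and 0 of all 13706 genes tested (0%). At an unadjusted p under 0.05 the count was also 0 of 8 members, against 8.41% of all genes. A Poisson test on counts pooled over each group, which takes no account of how tumors of a group vary, called 7 of 8 members and 69.9% of all genes. The median log2 fold change of the 8 members was -0.44 and that of all genes tested was 0.018. Retnla was the only 1 of 10 members whose test and control tumors did not overlap, against 5.53% of all listed genes with all test tumors above all controls.

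**Figure D1:**
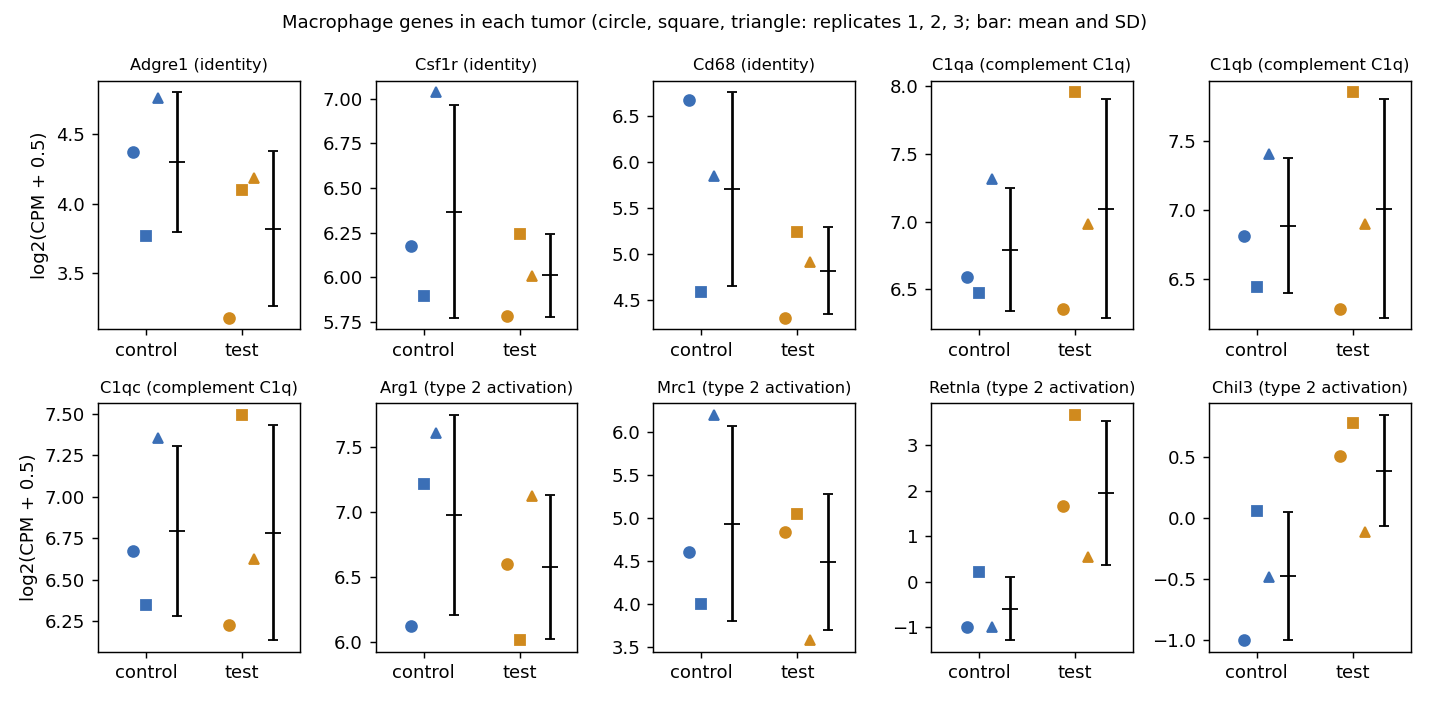
Each panel shows 1 gene as log2(CPM + 0.5) in the 3 control tumors (blue) and 3 test tumors (orange), with the mean and SD of each group beside the points. The groups overlapped for 9 of 10 genes, and only for Retnla did every test tumor lie above every control tumor.

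The 3 identity genes were each lower on average in the test tumors, with overlapping groups. Csf1r, the receptor for the macrophage growth factors CSF1 and IL-34, measured 54.5, 75.3 and 63.9 CPM in test tumors 1 to 3 and 71.8, 58.9 and 131 CPM in control tumors 1 to 3. Control tumor 3 stood highest, and the other 5 tumors lay within a narrow band. Its log2 fold change was -0.43 (SE 0.34; adjusted p = 0.769, quasi-likelihood test in edgeR, Benjamini-Hochberg adjusted), with a 95% interval from -1.23 to 0.37, and it was -0.02 without control tumor 3. In a bulk tumor, fewer macrophages and less RNA per macrophage cannot be told apart.

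Adgre1, which encodes the surface marker F4/80, measured 8.53, 16.6 and 17.7 CPM in the test tumors and 20.3, 13.1 and 26.6 CPM in the controls. Test tumor 1 was lowest and control tumors 1 and 3 were highest, with control tumor 2 below test tumors 2 and 3. The log2 fold change was -0.48 (SE 0.40; adjusted p = 0.777 by edgeR), and it was -0.22 without test tumor 1 and -0.23 without control tumor 3.

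Cd68, a lysosomal membrane glycoprotein used to stain macrophages, had the largest difference of the 8 genes tested. It measured 19.3, 37.4 and 29.6 CPM in the test tumors and 102, 23.5 and 57.1 CPM in the controls. Control tumors 1 and 3 lay above every test tumor, and control tumor 2 lay among the test tumors. The log2 fold change was -1.08 (SE 0.52; 95% interval -2.30 to 0.13), with an unadjusted p of 0.0736 and an adjusted p of 0.647 in edgeR's quasi-likelihood test. DESeq2 gave an unadjusted p of 0.0451 and an adjusted p of 0.462. Without control tumor 1 the log2 fold change was -0.49. The exact two-sided permutation test over the 6 tumors, which cannot give a p below 0.1, gave p = 0.3 for Cd68, 0.4 for Adgre1 and 0.5 for Csf1r.

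Identity genes varied alongside markers of other cells. Summed over Adgre1, Csf1r and Cd68, the test tumors held 82.3, 129 and 111 CPM and the control tumors 194, 95.5 and 214 CPM. Control tumors 1 and 3 were highest and control tumor 2 fell within the test range. The 8 mammary epithelial genes summed to 5973, 6023 and 5987 CPM in the test tumors and 2341, 4636 and 2152 CPM in the controls. All 8 were higher on average in test tumors, where 51.5% of all genes tested were higher. By edgeR, 0 of 8 passed the false discovery rate and 3 had an unadjusted p under 0.05, against 8.41% of all genes. DESeq2 called 1 of 8, against 2.32% of all genes. This was Krt19 (adjusted p = 0.00394), which was named after its values were seen. The 6 pan-leukocyte genes summed to 111, 199 and 217 CPM in the test tumors and 282, 157 and 305 CPM in the controls. The 2 tumors with the most macrophage identity RNA thus had the most leukocyte and the least epithelial RNA. The part of these shifts in the identity genes was not tested.

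**Figure D2:**
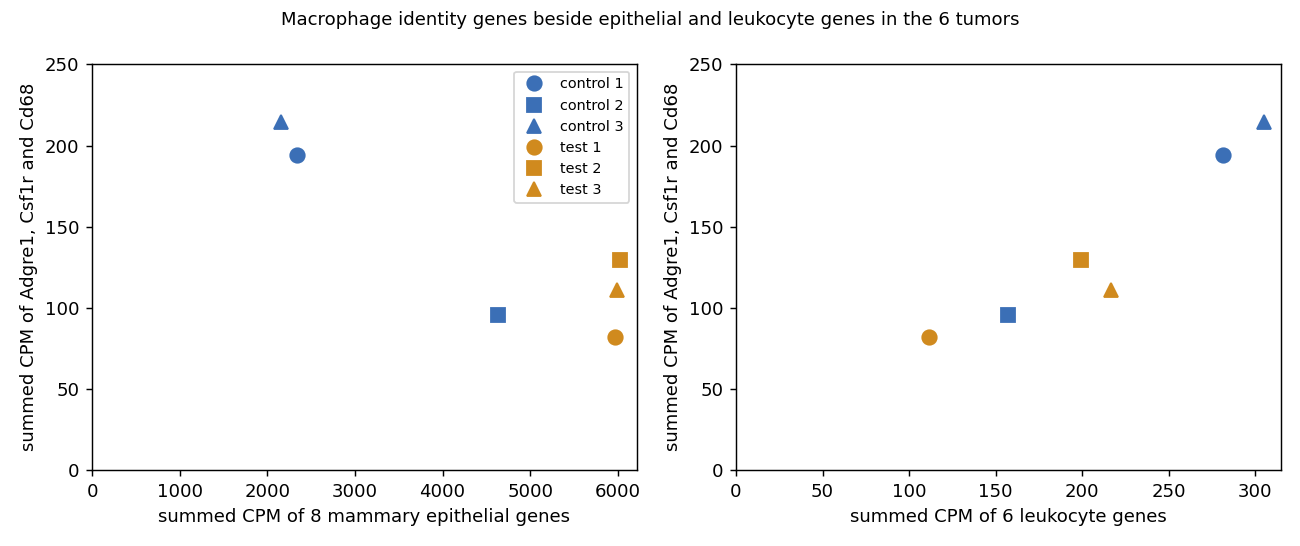
Summed CPM of the 3 identity genes (vertical axis) is plotted against the summed CPM of 8 mammary epithelial genes (left) and 6 pan-leukocyte genes (right), 1 point per tumor. Control tumors 1 and 3, at 194 and 214 CPM, sit apart from control tumor 2 and the 3 test tumors, which range from 82.3 to 129 CPM.

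The C1q genes lie side by side on chromosome 4 of GRCm38.p6, C1qb at chr4:136880126-136886200, C1qc at chr4:136889801-136892936 and C1qa at chr4:136895916-136898844. C1qa measured 81.3, 247 and 126 CPM in the test tumors and 96.2, 88.4 and 158 CPM in the controls. C1qb measured 77.0, 231 and 119 CPM in the test tumors and 112, 86.2 and 169 CPM in the controls. C1qc measured 74.5, 179.7 and 97.9 CPM in the test tumors and 102, 81.0 and 163 CPM in the controls. For each chain test tumor 2 was highest, control tumor 3 was next, test tumor 1 was lowest, and the groups overlapped.

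Log2 fold changes were 0.41 (SE 0.44; adjusted p = 0.820) for C1qa, 0.22 (SE 0.45; adjusted p = 0.907) for C1qb and 0.03 (SE 0.41; adjusted p = 0.989) for C1qc in edgeR's quasi-likelihood test. The direction rested on test tumor 2: without it the values were -0.14, -0.32 and -0.41. For C1qc it also turned without control tumor 1 (-0.06) and without control tumor 2 (-0.17). Exact two-sided permutation p values were 0.7, 0.9 and 1.0. As a description over 6 tumors that share their libraries, Pearson's r of log2(CPM + 0.5) was 0.978 between C1qa and C1qb, 0.981 between C1qb and C1qc and 0.939 between C1qa and C1qc.

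Because C1qb and C1qc followed each other from tumor to tumor, their promoters are shown. They come from RefSeq on GRCm38.p6, whose table held a promoter for 6 of the 10 members (Mrc1, Chil3, C1qb, C1qc, Cd68 and Retnla), each reaching from 250 bases before the start of the gene to 50 bases after it. The capitals mark AGGAAGT, the core bound by ETS factors such as the macrophage factor PU.1, which was searched on both strands and is read here as its complement. The windows lie on the minus strand at chr4:136886220-136886280 for C1qb and at chr4:136893076-136893136 for C1qc, and their matches begin 53 and 195 bases before the start.
C1qb: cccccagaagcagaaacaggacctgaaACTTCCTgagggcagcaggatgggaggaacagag
C1qc: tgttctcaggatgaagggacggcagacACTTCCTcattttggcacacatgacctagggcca
The same letters were present in the promoters of Mrc1, Chil3 and Retnla and were not found in that of Cd68. Of all 32851 promoters of this length, 9.35% held them. The motifs were chosen after the promoters had been read, and a match is a description of letters, not of binding.

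Arg1 was the most abundant of the type 2 genes, and Mrc1 was present in every tumor, but neither passed the test. Arg1, which turns arginine into ornithine and urea, measured 96.6, 64.2 and 139 CPM in the test tumors and 69.2, 148 and 194 CPM in the controls. Control tumor 1 lay near the bottom and control tumors 2 and 3 at the top, with the test tumors spread between 64.2 and 139 CPM. The log2 fold change was -0.46 (SE 0.44; 95% interval -1.47 to 0.56; adjusted p = 0.799, edgeR's quasi-likelihood test). It was -0.12 without control tumor 3, -0.22 without test tumor 2, -0.76 without test tumor 3 and -0.78 without control tumor 1, and exact permutation, two-sided, gave 0.4 as its p. Arg2, its mitochondrial paralog, measured 7.85 to 55.7 CPM in the test tumors and 6.60 to 48.2 CPM in the controls, with an adjusted p of 0.900 by edgeR.

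Mrc1, an endocytic receptor for mannose-bearing glycoproteins, measured 28.3, 32.6 and 11.5 CPM in the test tumors and 23.8, 15.6 and 73.3 CPM in the controls. Control tumor 3 stood far above the rest, and test tumor 3 was lowest. The log2 fold change was -0.64 (SE 0.63; adjusted p = 0.801 by edgeR) and turned to 0.28 without control tumor 3. It was -0.29 without test tumor 3 and -1.01 without control tumor 2. By exact permutation, two-sided, p was 0.7. Mrc1 is also expressed by lymphatic endothelium, whose markers did not move as a group. Pdpn, which other cells also make, measured 155 and 207 CPM in control tumors 1 and 3 and 19.7 to 30.6 CPM in the other 4 tumors, and gave most of the list's sum of 166 and 221 CPM in those controls. Lyve1, a hyaluronan receptor of lymphatic vessels and some macrophages, measured 10.8, 16.0 and 1.06 CPM in the test tumors and 0.347, 0.865 and 4.05 CPM in the controls, with test tumors 1 and 2 highest. Of the 4 lymphatic genes tested, 2 were higher and 2 lower in test tumors. The part of lymphatic vessels in the Mrc1 values was not tested.

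Retnla was the gene that separated the groups, at low counts. It had 23, 100 and 9 expected counts in test tumors 1 to 3 and 0, 6 and 0 in control tumors 1 to 3, or 2.65, 12.2 and 0.955 CPM against 0, 0.649 and 0 CPM. Every test tumor lay above every control tumor, test tumor 2 alone held most of the reads, and the narrowest gap was between 9 counts in test tumor 3 and 6 in control tumor 2. That pair had a ratio of 1.47 with a 95% counting interval from 0.468 to 5.02 (exact binomial). Pooled over each group, 132 counts stood against 6, a ratio of 22.8 with a 95% counting interval from 10.2 to 63.3. These intervals hold counting error alone, without the variation from tumor to tumor. Without control tumor 2, both remaining controls were at 0. The mean of the test tumors was 15.8-fold the floor of 3 counts in each of control tumors 1 and 3.

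Retnla did not pass the low count filter of edgeR, which asks for enough reads in 3 tumors. With no filter, edgeR's quasi-likelihood test gave a log2 fold change of 4.48 (SE 1.39), an unadjusted p of 0.0103 and a Benjamini-Hochberg adjusted p of 0.424. DESeq2 gave 4.57 (SE 1.33) and an adjusted p of 0.0318, which made Retnla the 1 of 10 members that it called, where it called 344 of 14808 genes (2.32%), and 0.662% as higher in test tumors. The call therefore depended on the tool. By exact permutation, two-sided, p was 0.1, the smallest that 3 tumors against 3 allow.

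The stretch before the start of Retnla is shown because its induction by IL-4 is known to run through STAT6 and C/EBP. It holds 250 bases on the plus strand, chr16:48842359-48842608 of GRCm38.p6, and the capitals mark, from left to right, AGGAAGT read as its complement, TTCNNNNGAA (the spacing preferred by STAT6) and TTGCNNAA (a C/EBP core).
Retnla: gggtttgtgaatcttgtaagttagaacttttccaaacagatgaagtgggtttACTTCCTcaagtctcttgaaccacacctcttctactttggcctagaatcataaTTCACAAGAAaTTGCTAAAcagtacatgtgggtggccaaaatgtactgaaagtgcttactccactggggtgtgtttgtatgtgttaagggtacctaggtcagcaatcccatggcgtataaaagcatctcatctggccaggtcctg
The 3 matches begin 198, 145 and 134 bases before the start and do not overlap each other. TTCNNNNGAA was found in 6.95% of all promoters, TTGCNNAA in 10.8%, and both together in 0.840%. These motifs were looked for because that induction is known, so the shares do not measure how unusual the Retnla promoter is. Among the 6 member promoters, TTCNNNNGAA was in that of Retnla alone, and TTGCNNAA was also in that of Cd68. TTCNNNGAA, the shorter spacing used by other STAT factors, was in that of Chil3 alone and in 8.30% of all promoters.

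Retnla is not a marker of macrophages alone, since RELMα is also made in adipose tissue. The 9 adipocyte genes summed to 944, 228 and 53.7 CPM in test tumors 1 to 3 and 123, 62.0 and 106 CPM in the controls. Test tumors 1 and 2 lay above the controls and test tumor 3 below them. The defining marker Adipoq measured 46.5, 8.06 and 0.318 CPM in the test tumors and 0.116, 1.84 and 0.746 CPM in the controls. The 10 skeletal muscle genes, which also come from tissue around the tumor, summed to 124 to 1338 CPM in the test tumors and 17.7 to 224 CPM in the controls. The part of adipose tissue in the Retnla values was not tested. The 4 eosinophil genes with reads summed to 3.23 to 5.61 CPM in the test tumors and 3.12 to 6.50 CPM in the controls, and most of each sum was Il5ra, at 2.31 to 4.76 and 2.81 to 5.11 CPM. Siglecf was at 0 in 4 of 6 tumors and Ccr3 at 0 in 5 of 6. Ear2, of a family of near-identical copies that leaves its level uncertain, had 6, 7 and 5 counts in the test tumors and 0, 2 and 1 in the controls, so that its groups, like those of Retnla, did not overlap. With no filter, edgeR gave it a log2 fold change of 2.51 and an adjusted p of 0.635. The part of eosinophils in the Retnla values was not tested. The paralog Retnlg, a neutrophil gene, stayed between 0.115 and 1.80 CPM. DESeq2 called 2 of the 9 adipocyte genes, Cidec (adjusted p = 0.00115) and Retn (adjusted p = 0.0237), against 2.32% of all genes. By edgeR, 0 of the 5 adipocyte genes that passed the filter were called. Adipoq, Cidec, Retn, Siglecf, Ccr3 and Ear2 were named after their values were seen.

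**Figure D3:**
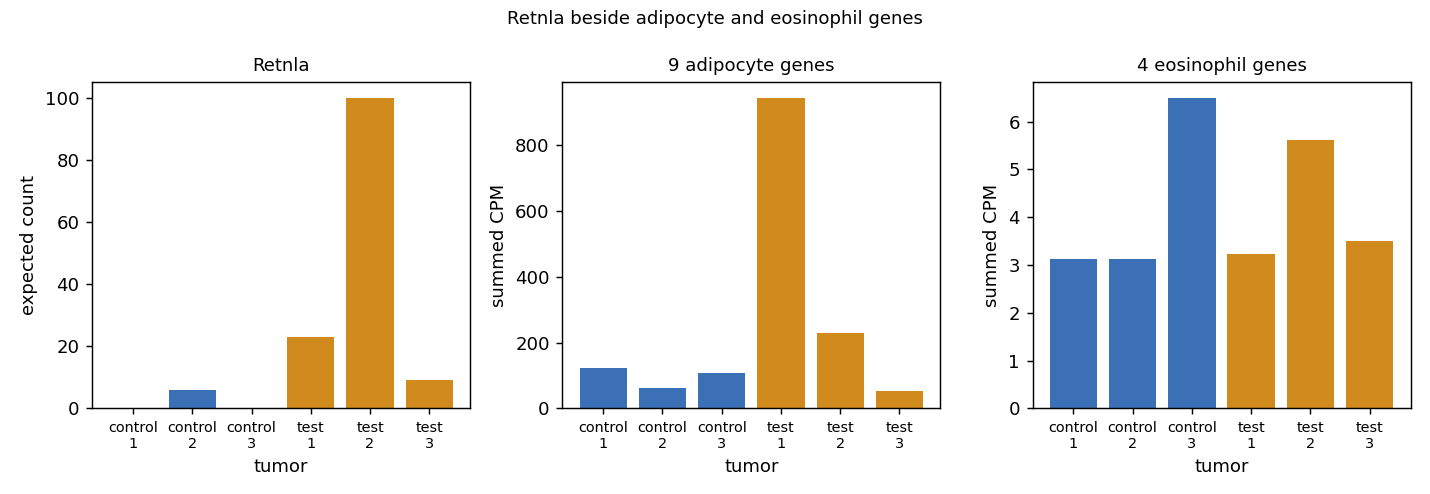
Bars give the expected count of Retnla (left) and the summed CPM of 9 adipocyte genes (middle) and 4 eosinophil genes (right) in each control tumor (blue) and test tumor (orange). Retnla was highest in test tumor 2, at 100 counts, and the adipocyte sum was highest in test tumor 1, at 944 CPM.

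Chil3 lay near the floor of detection. It had 8, 10 and 4 counts in the test tumors and 0, 5 and 2 in the controls, where 3 counts correspond to 0.318 to 0.366 CPM. Test tumors 1 and 2 were highest, and test tumor 3 lay below control tumor 2. Pooled counts of 22 against 7 gave a ratio of 3.26 with a 95% counting interval from 1.35 to 9.04, and edgeR's quasi-likelihood test with no filter gave an adjusted p of 0.754. Chil3 shares most of its sequence with Chil4, which was not analysed here, so that reads could have been split between them and the level is uncertain.

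**Figure D4:**
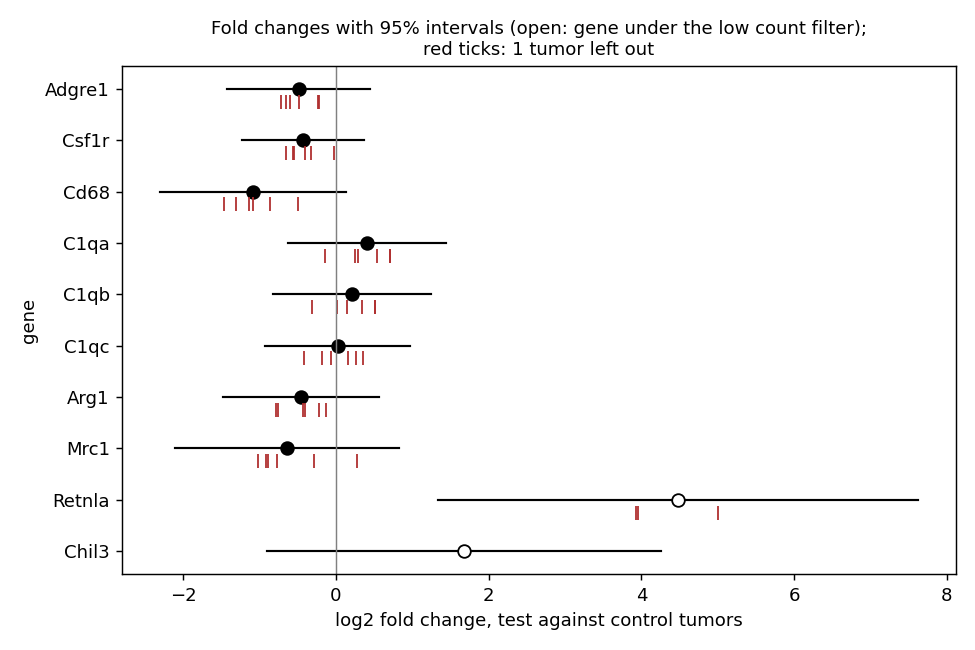
Log2 fold changes of test against control tumors are drawn with 95% intervals, filled for the 8 genes that passed the filter and open for Retnla and Chil3, fitted with no filter. Red ticks give the value with 1 tumor left out; the tick for Retnla without control tumor 2, where no control reads remain, is not drawn.

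Set on the FPKM scale, the members spanned a wide range of levels. Means over all 6 tumors were 126 FPKM for C1qb, 124 for C1qa, 111 for C1qc, 81.0 for Arg1, 44.4 for Cd68, 19.4 for Csf1r, 5.76 for Mrc1, 5.22 for Adgre1, 4.66 for Retnla and 0.353 for Chil3. The C1q chains could not be ordered, since C1qb exceeded C1qa in 2 of 6 tumors and C1qa exceeded C1qc in 4 of 6. Cd68 exceeded Csf1r, and Csf1r exceeded Mrc1, in 6 of 6 tumors. Mrc1 exceeded Adgre1 in 3 of 6. Arg1 lay above every identity gene on average and below the C1q chains, and Chil3 lay at the bottom. The place of Retnla rests on pooling groups that differ, with means of 8.92 FPKM in the test tumors and 0.393 FPKM in the controls. In the test tumors its mean lay above those of Mrc1 (4.44 FPKM) and Adgre1 (4.32 FPKM).

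Ratios within a tumor set activation beside identity. The mean log2(CPM + 0.5) of Arg1, Mrc1, Retnla and Chil3 minus that of Adgre1, Csf1r and Cd68 was -1.02, -1.32 and -2.25 in test tumors 1 to 3 and -3.56, -1.88 and -2.80 in control tumors 1 to 3. The test tumors lay higher on average, and test tumor 3 lay below control tumor 2. The means differed by 1.22 with a pooled SD of 0.75 between tumors, and by 0.58 with a pooled SD of 0.68 once Retnla was left out. Taken alone, the identity mean differed by -0.57 and the activation mean, with Retnla, by 0.64. The 0.58 left without Retnla was thus about the size of the lower identity mean. It also rested on Chil3, which lay near the floor of detection. On this scale Arg1 differed by -0.40 and Mrc1 by -0.45, and Chil3 differed by 0.87 and offset them. The ratio of Arg1 to Csf1r, in FPKM, ran from 2.25 to 5.75 in the test tumors and 2.55 to 6.64 in the controls. That of Mrc1 to Csf1r ran from 0.130 to 0.376 and from 0.192 to 0.407. For C1qa and Csf1r the ratio was 5.47 to 12.0 in the test tumors and 4.44 to 5.50 in the controls, which overlapped only between the lowest test and the highest control value. The other chains overlapped more. C1qb to Csf1r ran from 5.29 to 11.5 and from 4.85 to 5.83, and C1qc to Csf1r from 5.11 to 8.92 and from 4.67 to 5.29. For both, test tumor 1 lay below control tumors 1 and 2.

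The wider macrophage program was measured in the same fit. Among 26 further identity genes, 23 passed the filter, 7 of them higher in test tumors and 16 lower. Their median log2 fold change was -0.25, but it was 0.04 without control tumor 3, -0.56 without control tumor 2 and -0.65 without test tumor 2. By edgeR 0 passed the false discovery rate and 4 had an unadjusted p under 0.05, and DESeq2 called 0. Lyz2, which encodes lysozyme, had a log2 fold change of -0.52 (adjusted p = 0.807 by edgeR). Cd14, the co-receptor for lipopolysaccharide, measured 196, 183 and 185 CPM in the test tumors and 57.6, 141 and 72.4 CPM in the controls, which did not overlap. Its log2 fold change was 1.06 (SE 0.36; unadjusted p = 0.0195, adjusted p = 0.483 by edgeR's quasi-likelihood test), against the direction of the 3 identity members.

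Maf, a transcription factor of tissue macrophages, measured 17.4, 22.7 and 16.9 CPM in the test tumors and 89.0, 13.8 and 121 CPM in the controls, with control tumor 2 lowest of all. Siglec1, the macrophage receptor CD169, measured 4.96, 4.27 and 15.9 CPM in the test tumors and 29.4, 10.2 and 33.5 CPM in the controls. Both were named after their values were seen, and their unadjusted p values by edgeR were 0.0206 and 0.0457, with adjusted p values of 0.489 and 0.578. Like Cd68, these genes were highest in control tumors 1 and 3.

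Among 24 further type 2 genes, 16 passed the filter, 6 of them higher and 10 lower, none at an unadjusted p under 0.05, with a median log2 fold change of -0.16, which was -0.26 without test tumor 3. Il4ra, the shared receptor chain for IL-4 and IL-13, measured 31.2 to 39.6 CPM in the test tumors and 36.3 to 40.0 CPM in the controls, a log2 fold change of -0.11 (SE 0.23; adjusted p = 0.907 by edgeR). Il13ra1, its partner, had a log2 fold change of -0.54, Stat6 of -0.21 and Tgm2, a transglutaminase induced by IL-4, of -0.36. Their adjusted p values by edgeR were 0.739, 0.840 and 0.836. The ligands Il4 and Il13 were not analysed here. Of the 23 listed genes of this group, 2 had every test tumor above every control, against 5.53% of all listed genes. These were Irf4 and Clec10a, singled out with their values in view and below the filter. Irf4, a transcription factor of lymphocytes and of type 2 macrophages, measured 53.7 CPM in test tumor 1 and 1.34 and 0.637 CPM in test tumors 2 and 3, against 0 to 0.533 CPM in the controls. Clec10a, a galactose lectin of macrophages and dendritic cells, measured 5.07, 0.977 and 1.59 CPM against 0 to 0.533 CPM.

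Classical activation, the state driven by interferon gamma and microbial products, was represented by 18 genes. Of the 12 that passed the filter, 3 were higher in test tumors and 9 lower, and their median log2 fold change was -0.62. It was -0.04 without control tumor 1, -0.27 without test tumor 1 and -1.13 without test tumor 3. Irf1, an interferon-induced transcription factor, and Ptgs2 had log2 fold changes of -0.65 and -1.55, and adjusted p values by edgeR of 0.770 and 0.733. Ptgs2, which encodes cyclooxygenase-2, was set by control tumor 1, at 79.6 CPM, with 1.96 to 27.1 CPM in the other 5 tumors. The gene at an unadjusted p under 0.05 was Cd38, named after its values were seen, at -1.42 (adjusted p = 0.513 by edgeR). The further type 2 genes and the classical genes that passed the filter thus both had medians below 0. Genes under the filter, and the members Retnla and Chil3, are not in these medians. No gene of either list passed the false discovery rate by edgeR or DESeq2.

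No gene among the growth factors, chemokines and their receptors passed the false discovery rate by edgeR or DESeq2, and 1 had an unadjusted p under 0.05 by edgeR. Of 15 genes tested, 5 were higher and 10 lower, with a median log2 fold change of -0.27. That median was 0.12 without control tumor 3, -0.08 without control tumor 1 or test tumor 3 and -0.42 without control tumor 2. Csf1, the main growth factor of macrophages, measured 45.8, 33.3 and 73.4 CPM in the test tumors and 91.8, 50.8 and 81.8 CPM in the controls, a log2 fold change of -0.56 (SE 0.37; adjusted p = 0.723 by edgeR). Il34, the other ligand of Csf1r, was at -0.28 (adjusted p = 0.921) and Cx3cl1, a membrane-bound chemokine, at -0.27 (adjusted p = 0.838). The GM-CSF receptor chains Csf2ra and Csf2rb were at 0.08 and -0.45, and Csf2 itself had at most 0.610 CPM. Among the 14 complement genes outside C1q, 6 were higher and 8 lower, with a median of -0.45, which was 0.04 without control tumor 1, -0.30 without test tumor 1 and -0.73 without control tumor 2. C4b and C3, later components of the cascade that C1q starts, were at -1.20 and -1.52, and Cfb, of the alternative pathway, at 0.46. Their adjusted p values by edgeR were 0.675, 0.533 and 0.854. The point farthest from 0 in this list was Cfd, a factor made by adipocytes and named after its values were seen, at 5.10 (adjusted p = 0.460 by edgeR).

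**Figure D5:**
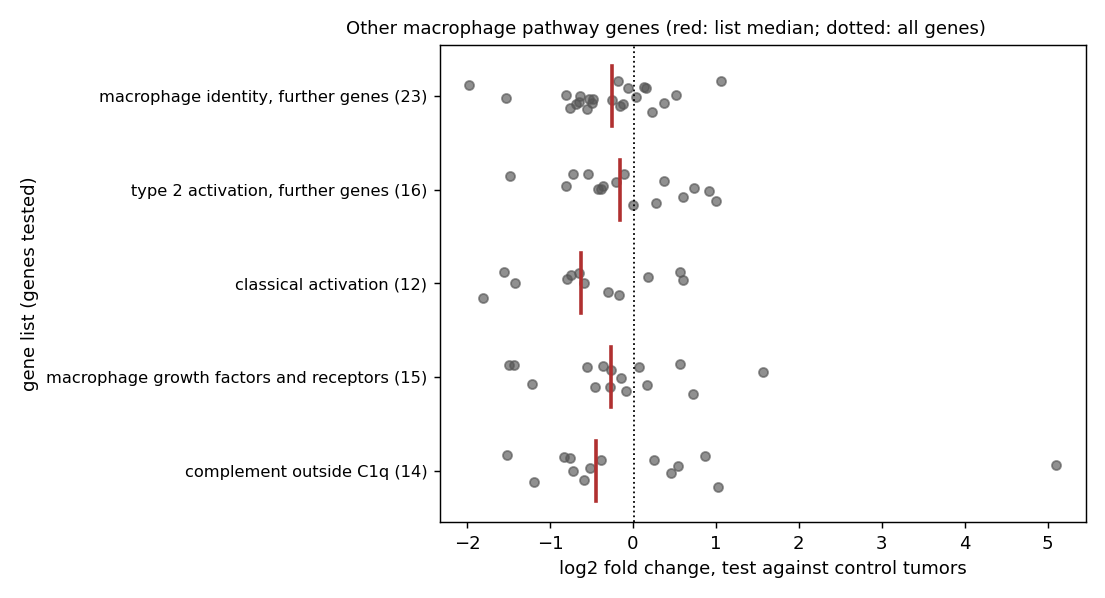
Each point is the log2 fold change of 1 gene that passed the filter, in test against control tumors, grouped by list. The list median is in red and the median of all genes, 0.018, is dotted. All 5 list medians lay below 0, from -0.16 for type 2 activation to -0.62 for classical activation, with points on both sides of 0 in each. The medians for further identity genes, growth factors and complement lay above 0 with 1 control tumor left out.

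Genes with the most similar profile to Csf1r over the 6 tumors, among all that passed the filter and by Pearson's r of log2(CPM + 0.5), were Igsf11 (0.992), Abhd6 (0.984), Gjc3 (0.978), Mus81 (0.975) and Ltb4r1 (0.972). In each of them control tumor 3 was highest, as it was for Csf1r. For Arg1 they were Gpr155 (0.957), Chmp7 (0.951), Polr3c (0.948), Ctu2 (0.945) and Prps1l3 (0.922). Values this high are the top of 13706 genes over 6 points. Among the members, r of Csf1r was 0.833 with Adgre1 and 0.804 with Mrc1, whereas r of Arg1 ran from -0.24 to 0.38 with the 7 other members that passed the filter.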

How the data were processed

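RNA of 6 breast tumors, 1 per mouse, was sequenced at BGI on an Illumina HiSeq 2000, with 3 test and 3 control tumors named by the labels. Per the labels and the study's methods, reads were aligned to mm10 with Bowtie; BWA and RSEM are also named, without versions. The authors deposited for each gene an expected count from RSEM, which is not normalized, and an FPKM, scaled for gene length and depth. Between 79.0% and 80.1% of expected counts were whole numbers (within 1e-06). Genes not listed in a tumor were set to 0. Of 18460 genes, 18400 were matched to a symbol by NCBI Gene identifier.

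Expected counts were rounded and analysed in R 4.3.3 with edgeR 4.0.16 (filterByExpr, TMM, quasi-likelihood test, Benjamini-Hochberg adjustment over 13706 genes, two-sided). CPM uses TMM library sizes. Alternatives used DESeq2 1.42.0, limma 3.58.1 on log2(FPKM + 1) or log2(FPKM + 0.1) and a pooled Poisson test. Exact permutation tests covered all 20 splits of the 6 tumors. The scripts were tested on simulated data. A floor of 3 counts, 0.318 to 0.366 CPM, marks what the depth can show.

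The members, gene lists, tests and naming rule were chosen with earlier results of these data known. The rule named the members, the 3 most abundant genes of each list and any at the false discovery rate, the 5 genes most like Csf1r and Arg1, and fixed ligands, receptors, paralogs and label checks. Some genes that the rule named are not reported here. The promoter motifs were chosen after the data were seen. Promoters and gene positions are from RefSeq on GRCm38.p6.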

Additional observations from a re-analysis of the deposited data

How the results depend on the processing

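The number of genes called at a false discovery rate of 0.05, which was 0 by edgeR with 1153 genes at an unadjusted p under 0.05, was 344 by DESeq2, 1 by limma on log2(FPKM + 1), 9578 by the pooled Poisson test, and 0 to 182 with 1 tumor left out. The 182 came without control tumor 2. The number of members called, 0 by edgeR, was 1 by DESeq2 (Retnla) and 7 of 8 by the pooled Poisson test, which called 69.9% of all genes, and it stayed at 0 with any 1 tumor left out. For these counts and for the direction of each change, the cause was not tested. C1qc, near 0 in the main analysis, was -0.021 by limma on log2(FPKM + 1), with or without its filter, and -0.022 on log2(FPKM + 0.1), and with 1 tumor left out it ran from -0.41 to 0.36. With 1 tumor left out C1qa ran from -0.14 to 0.71, C1qb from -0.32 to 0.52 and Mrc1 from -1.01 to 0.28. Adgre1, Csf1r, Cd68 and Arg1 kept their direction under all 14 alternatives run for each. The activation minus identity difference was 0.58 to 1.88 over its 14 alternatives, none of which left out both Retnla and Chil3.

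Replicate numbers did not pair the tumors: deviations of same-numbered tumors from their group means correlated at -0.025, 0.121 and -0.137. With the replicate number as a block, 0 genes were called, 1056 had an unadjusted p under 0.05, and C1qc was -0.026, the one member whose direction turned. Depth limits Retnla and Chil3, whose reads in some tumors were at or under the floor, and no fit of Retnla without test tumor 1 or 2 passed the filter.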

Other observations

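Lysosomal and phagocytic genes, many of them shared by other cells of the tumor, were lower on average in the test tumors. All 18 passed the filter, 5 higher in test tumors and 13 lower, their median log2 fold change was -0.23, and 0 were called at the false discovery rate by edgeR or DESeq2, with 0 at an unadjusted p under 0.05 by edgeR. The median was -0.07 without control tumor 1 and -0.43 without control tumor 2. Mfge8, a bridge between dying cells and phagocytes that is also made by mammary epithelium, measured 1594, 2721 and 967 CPM in the test tumors and 5365, 1559.8 and 4530.2 CPM in the controls, so that control tumors 1 and 3 again stood highest. Psap and Ctsd, of the lysosomal lumen, had log2 fold changes of -0.20 and -0.03 (adjusted p = 0.878 and 0.982, edgeR's quasi-likelihood test).

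Arginine and polyamine metabolism, downstream of arginase, was split, with 7 of 14 tested genes higher and 7 lower and a median of 0.07, which was -0.13 without test tumor 1. Sat1, which acetylates polyamines for export and breakdown, measured 230, 204 and 285 CPM in the test tumors and 70.6, 104 and 79.4 CPM in the controls, without overlap. Its log2 fold change was 1.50 (SE 0.27), with an unadjusted p of 0.000611 and an adjusted p of 0.394 by edgeR, and DESeq2 called it at an adjusted p of 0.000754. Slc7a2, an arginine transporter named after its values were seen, measured 23.9, 22.1 and 8.49 CPM in the test tumors and 489, 21.4 and 169 CPM in the controls, where control tumor 2 again fell among the test tumors (adjusted p = 0.430 by edgeR and 0.00153 by DESeq2). Ass1 and Amd1 had log2 fold changes of -0.01 and 0.39.

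Neutrophil genes summed to 26.3 to 72.0 CPM in the test tumors and 60.0 to 116 CPM in the controls, with 1 of 5 tested genes higher and 4 lower. Dendritic cell genes summed to 18.4 to 53.6 and 19.9 to 58.4 CPM, and fibroblast genes to 1736 to 5912 and 3718 to 3820 CPM. Most T cell genes were low, with Cd4 at 1.04 to 1.91 CPM in the test tumors and 1.73 to 3.73 CPM in the controls and Lck at 1.50 to 4.15 and 1.19 to 2.20 CPM. Of the 4 T cell genes tested, 3 were higher and 1 lower in test tumors. Their median log2 fold change was 0.18, which was -0.19 without test tumor 2. Gata3 of that list, also a gene of luminal mammary epithelium, measured 232 to 313 and 235 to 259 CPM.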
